A study of Mus musculus with 4 samples.

Results

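The genes described here are the 10 mouse genes of the MYC-MAX-MXD network: Myc, Mycn, Mycl, Max, Mxd1, Mxd3, Mxd4, Mxi1, Mnt and Mga. They were taken by gene name from a deposited table of 28443 genes, in which all 10 were found, and 9 had enough counts to be tested. RNA-seq was performed on bone marrow-derived macrophages (BMDMs) from mice 8 weeks old, kept with M-CSF and exposed to 50 ng/ml of RANKL, the cytokine that starts osteoclast differentiation, for 1 day. MYC-deficient cells (2 libraries) came from MYC f/f LysM cre mice, in which Cre driven by the Lyz2 gene removes the floxed Myc gene in myeloid cells, and MYC-WT cells (2 libraries) from LysM cre mice with intact Myc, so all 4 libraries carried Cre. The series calls the 2 libraries of a genotype biological replicates without saying whether each came from its own mouse, so p-values measure only the spread between these libraries.

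MYC, N-MYC and L-MYC are transcription factors with a basic helix-loop-helix leucine zipper that bind DNA only as a pair with MAX, and the preferred site of the pair is the E-box CACGTG. The MXD proteins, MXI1 and MNT compete for the same partner and the same sites, and they bring SIN3-histone deacetylase complexes that silence transcription, while MGA pairs with MAX within a Polycomb complex. Growth signals are known to raise MYC, and differentiation is known to shift MAX toward the MXD proteins. In osteoclast precursors RANKL induces MYC. The comparison therefore asks what happened to the rest of the network when Myc itself was removed.

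Total counts ranged from 27544806 to 35794698 per library. Of 8 macrophage markers, 7 were between 16.6 and 1883 CPM (counts scaled to the total count of the library) in every library. The exception was Lyz2, the gene that holds the Cre insertion, at 9.44 and 11.3 CPM in MYC-deficient against 19.0 and 9.30 CPM in MYC-WT cells. Nfatc1, Ctsk and Acp5, markers of osteoclast differentiation, were present in all 4 libraries, and the osteoclast marker Calcr had no count. Marker sums moved between libraries. That of 8 neutrophil markers was 278 and 99.3 CPM in MYC-deficient against 102 and 44.6 CPM in MYC-WT cells, with replicate 1 above replicate 2 in both genotypes. That of 6 monocyte markers was 186 and 141 CPM in MYC-deficient against 36.3 and 34.3 CPM in MYC-WT cells. Most of it was Ccr2, and the other 5 summed to 38.8 and 35.4 CPM in MYC-deficient against 19.3 and 22.6 CPM in MYC-WT cells. Of the tested markers, 4 of 8 of macrophages and 2 of 6 of monocytes were higher in MYC-deficient cells, against 6.06% of all genes tested. Of osteoclast markers 3 of 7 were lower (Nfatc1, Ocstamp and Oscar), against 9.91% of all genes. Some markers went the other way without a call. Among osteoclast markers, Mmp9 and Dcstamp had log2 fold changes (MYC-deficient over MYC-WT) of 0.49 and 0.37. Among macrophage markers, Lyz2 and Spi1 had -0.42 and -0.02, and the monocyte marker Vcan had -0.56. None of 7 neutrophil markers was called by edgeR's quasi-likelihood test, against 16.0% of all genes tested. There 3 had an unadjusted p under 0.05, a cut that a large share of all genes passed, and all 3 were higher. DESeq2 called 2 of the 7 higher, edgeR's likelihood ratio test 3 and limma 0. Over all genes these 3 tests called 1089, 1113 and 864 higher. The part of such shifts in the values of the network genes was not tested. In these bulk libraries, fewer cells of a type and less RNA per cell cannot be told apart.

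The test was edgeR's quasi-likelihood test over the 13436 genes with enough counts, and calls required a Benjamini-Hochberg adjusted p under 0.05 with a change of more than 1.5-fold. Of the 9 tested network genes, 4 were called, against 16.0% of all genes tested. Myc, Mycl and Max were lower in MYC-deficient cells, where 9.91% of all genes were called lower. Mxd3 was higher, where 6.06% of all genes were called higher. The other 5, Mxd1, Mxd4, Mxi1, Mnt and Mga, were not called, and their log2 fold changes (MYC-deficient over MYC-WT) lay within 0.30 of 0. Myc is the deleted gene, so its fall was set by the design and its call is no result about the network. Besides Myc, the called genes were Mycl and the shared partner Max, which fell, and 1 of 5 antagonists, Mxd3, which rose. The median log2 fold change of the 9 genes, Myc included, was -0.21, against -0.01 over all genes tested.

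**Figure D1:**
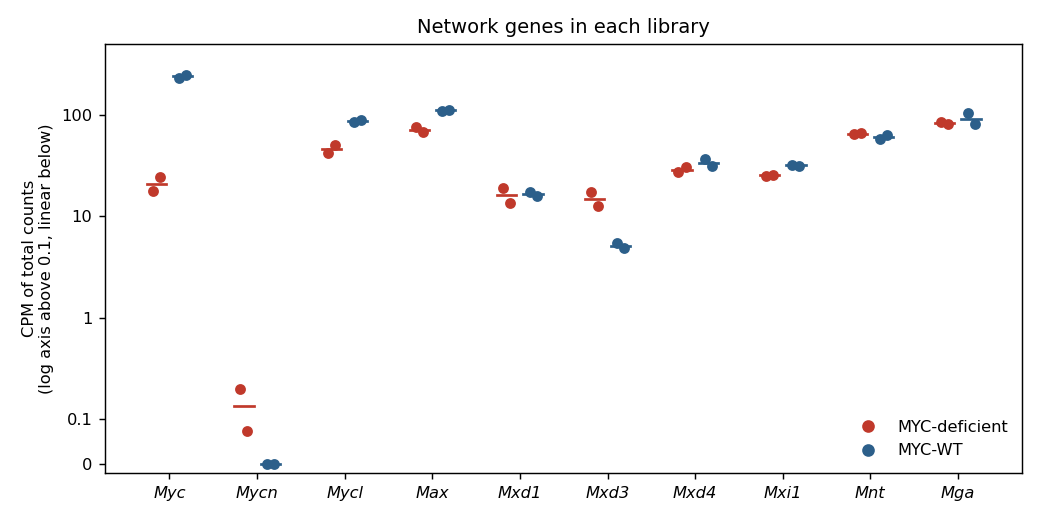
CPM of total counts (log axis above 0.1, linear below) of the 10 network genes, with 1 point per library and a bar at the mean of the 2 libraries of a genotype. Myc at 17.7 and 24.2 CPM in MYC-deficient cells lay far below its 230.4 and 249.9 CPM in MYC-WT cells, Mycl and Max were lower to a smaller extent, and Mxd3 at 17.3 and 12.5 CPM was above its 5.42 and 4.84 CPM.

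Promoters were read for the E-box to which MYC-MAX and MXD-MAX pairs bind. RefSeq promoter windows (GRCm38.p6, 250 bases before to 50 after a gene start) were matched for 9 of the 10 genes, 11 windows in all. CACGTG, which reads the same on both strands, lay in 3 windows, those of Max, Mxd4 and Mnt, and in 7.15% of all 32851 windows. The match in the Max window begins 3 bases before the RefSeq gene start, that of Mnt 123 bases and that of Mxd4 219 bases before it. The RefSeq start of Max, at 76962248, lies outside its gene span in the deposited table, which ends at 76962201. The Max match lies outside that span too. The stretches with a match are shown, and those of the called genes Mycl and Mxd3, whose windows held none, stand beside them. The RefSeq start of Mycl lies 279 bases inside the gene span of the deposited table, and that of Mxd3 92 bases, so the Mycl window does not reach the sequence before the start in that table. CACGTG is in capitals.
Max, chr12:76962244-76962398, minus strand: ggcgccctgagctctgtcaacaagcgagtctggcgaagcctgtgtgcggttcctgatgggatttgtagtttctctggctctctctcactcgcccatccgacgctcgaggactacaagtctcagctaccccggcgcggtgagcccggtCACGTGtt
Mnt, chr11:74830774-74830823, plus strand: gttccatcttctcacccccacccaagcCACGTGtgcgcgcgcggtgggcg
Mxd4, chr5:34187901-34187950, minus strand: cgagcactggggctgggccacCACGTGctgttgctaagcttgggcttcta
Mycl, chr4:122995781-122995930, plus strand: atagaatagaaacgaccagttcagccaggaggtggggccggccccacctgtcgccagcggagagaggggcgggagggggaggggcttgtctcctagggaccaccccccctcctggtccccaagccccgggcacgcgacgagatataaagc
Mxd3, chr13:55329732-55329881, minus strand: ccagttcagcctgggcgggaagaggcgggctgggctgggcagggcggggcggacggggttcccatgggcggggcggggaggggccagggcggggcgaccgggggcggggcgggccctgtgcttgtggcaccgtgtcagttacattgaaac
Of the 3 genes with the letters, Max was called lower and Mxd4 and Mnt were not called. A match describes the letters of a window, not binding.

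Among the MYC genes, Myc (ENSMUSG00000022346, chromosome 15, 61985391 to 61990374 in mm10), the deleted gene, had 633 and 667 counts in MYC-deficient cells, against 7656 and 7284 counts in MYC-WT cells. Its mean was 20.95 ± 4.62 CPM in MYC-deficient against 240.1 ± 13.8 CPM in MYC-WT libraries (SD, n = 2 each), or 11.3-fold lower, with a log2 fold change of -3.49 (SE, standard error, 0.20; adjusted p = 0.00711). The deletion was thus visible in both libraries labelled MYC-deficient, and the transcript remained well above 0 in each of them. The sources used here do not name the exons that the floxed allele loses, and counts of intact and recombined transcripts cannot be told apart.

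Mycl (ENSMUSG00000028654, chromosome 4, 122995652 to 123002485) encodes L-MYC, which also pairs with MAX and has a role in dendritic cells. It had 42.4 and 50.1 CPM in MYC-deficient cells, against 84.4 and 89.6 CPM in MYC-WT cells. The groups did not overlap, and Mycl was 1.85-fold lower, with a log2 fold change of -0.88 (SE 0.13, adjusted p = 0.0161). Its call was lost without MYC-WT replicate 2 (adjusted p = 0.0869). Mycl counts, at 1516 and 1379, were above the Myc counts of the same MYC-deficient libraries, whereas in MYC-WT libraries Mycl had 2804 and 2610 counts and Myc had the most counts of the 10 genes.

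Mycn, which encodes N-MYC and is best known from neural progenitors and embryonic tissue, was almost silent, with 7 and 2 counts in MYC-deficient cells and 0 and 0 counts in MYC-WT cells. It was too low to be tested. The absence of counts in both MYC-WT libraries allows up to 0.0481 CPM (3 counts over their summed total, counting error only). The 0.0726 CPM of MYC-deficient replicate 2 lay above this but rested on 2 counts, and no fold change is given for so few. The library with 7 counts, MYC-deficient replicate 1, was also the only one with counts of the stromal genes Col1a1 and Col1a2 (2.74 and 1.96 CPM). Dcn, the only stromal marker with enough counts to be tested, went the other way. It had 0.67 and 0.25 CPM in MYC-deficient against 1.84 and 3.09 CPM in MYC-WT cells (log2 fold change -2.34, adjusted p = 0.0388). The 5 stromal markers in the table summed to 5.53 and 0.254 CPM in MYC-deficient against 1.87 and 3.12 CPM in MYC-WT cells, and their part in the Mycn counts was not tested.

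Max (ENSMUSG00000059436, chromosome 12, 76937269 to 76962201), the partner shared by the other proteins of the network and a gene with the E-box letters at its RefSeq start, had 75.4 and 67.7 CPM in MYC-deficient cells. In MYC-WT cells it had 110.2 and 112.6 CPM. Both MYC-deficient libraries were below both MYC-WT libraries, and Max was 1.53-fold lower, with a log2 fold change of -0.61 (SE 0.10, adjusted p = 0.0202). The fall was small and lay at the fold threshold. With RLE scaling, DESeq2 or limma on the authors' log2 CPM the log2 fold change was -0.58 in each, with adjusted p of 0.0235, 0.000641 and 0.0213, and Max just missed the threshold of 1.5-fold. It also lost its call without MYC-WT replicate 1 (adjusted p = 0.0709), MYC-WT replicate 2 (adjusted p = 0.120) and MYC-deficient replicate 2 (adjusted p = 0.0581).

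Mxd3 (ENSMUSG00000021485, chromosome 13, 55325168 to 55329823) encodes an antagonist that, unlike its relatives, is known from proliferating cells in S phase. It had 620 and 345 counts in MYC-deficient cells and 180 and 141 counts in MYC-WT cells, or 17.3 and 12.5 CPM against 5.42 and 4.84 CPM. The lowest MYC-deficient library was more than double the highest MYC-WT library, although the MYC-deficient libraries differed from each other by 1.38 times. Mxd3 was 2.97-fold higher, with a log2 fold change of 1.57 (SE 0.21, adjusted p = 0.0133), and its call was lost without MYC-WT replicate 2 (adjusted p = 0.0738). In that setting the log2 fold change was still 1.51.

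Other measurements are set beside Mxd3 here. Its annotated 3′ end overlaps that of Prelid1 on the opposite strand by 105 bases, and whether the counting used strand was not stated in the sources used here. Prelid1 had 5973 and 5251 counts in MYC-deficient and 6402 and 6266 counts in MYC-WT libraries (log2 fold change -0.16, adjusted p = 0.428) and was not called. Of 10 markers of proliferation none was called by edgeR's quasi-likelihood test, against 16.0% of all genes tested. DESeq2, edgeR's likelihood ratio test and limma called none of them either. By the quasi-likelihood test 2 had an unadjusted p under 0.05, which a large share of all genes had, and both were lower. Mcm2 among them missed only the fold threshold (log2 fold change -0.48, adjusted p = 0.0346). The 10 markers summed to 3698 and 2800 CPM in MYC-deficient against 3335 and 2887 CPM in MYC-WT cells, which overlapped. The part of Prelid1 reads and of proliferation in the Mxd3 counts was not tested.

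The remaining antagonists were not called. Mxd1, which rises as myeloid cells mature and recruits SIN3 complexes, had 18.8 and 13.5 CPM in MYC-deficient against 17.2 and 15.95 CPM in MYC-WT cells. The MYC-deficient values spanned both MYC-WT values, and the log2 fold change was -0.01 (SE 0.19, adjusted p = 0.988), with a sign that changed with the scaling. Mxd1 was higher in replicate 1 than in replicate 2 in both genotypes, as were Mxd3 and Mga. The marker sums of neutrophils, monocytes, macrophages and proliferation had the same order, so it was not particular to neutrophil markers. The part of neutrophils in the Mxd1 and Mxd3 counts was not tested.

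Mxd4, which is known from resting and differentiated cells, had 27.1 and 30.5 CPM in MYC-deficient against 36.5 and 31.2 CPM in MYC-WT cells. The groups came close without overlapping. Its log2 fold change was -0.21 (SE 0.13, adjusted p = 0.319). Mxi1, also called MXD2, had 24.9 and 25.6 CPM in MYC-deficient against 32.2 and 31.4 CPM in MYC-WT cells. The replicates of Mxi1 lay close together and the groups did not overlap, yet its log2 fold change of -0.30 (SE 0.11, adjusted p = 0.107) was not called.

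Mnt, the antagonist that most tissues express throughout the cell cycle, had 64.6 and 65.5 CPM in MYC-deficient against 57.3 and 63.5 CPM in MYC-WT cells. Both MYC-deficient values lay just above the higher MYC-WT value. Its log2 fold change was 0.13 (SE 0.11, adjusted p = 0.449). Mga, the largest protein of the network, had 84.3 and 81.1 CPM in MYC-deficient against 103.2 and 80.3 CPM in MYC-WT cells, with a log2 fold change of -0.12 (SE 0.14, adjusted p = 0.580). Of these 5 genes, Mxi1 alone had an unadjusted p under 0.05, which a large share of all genes had. None of the 5 was called by DESeq2, edgeR's likelihood ratio test or limma. CPM of the 2 genotypes did not overlap for 7 of the 9 tested network genes, against 63.4% of all genes tested.

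**Figure D2:**
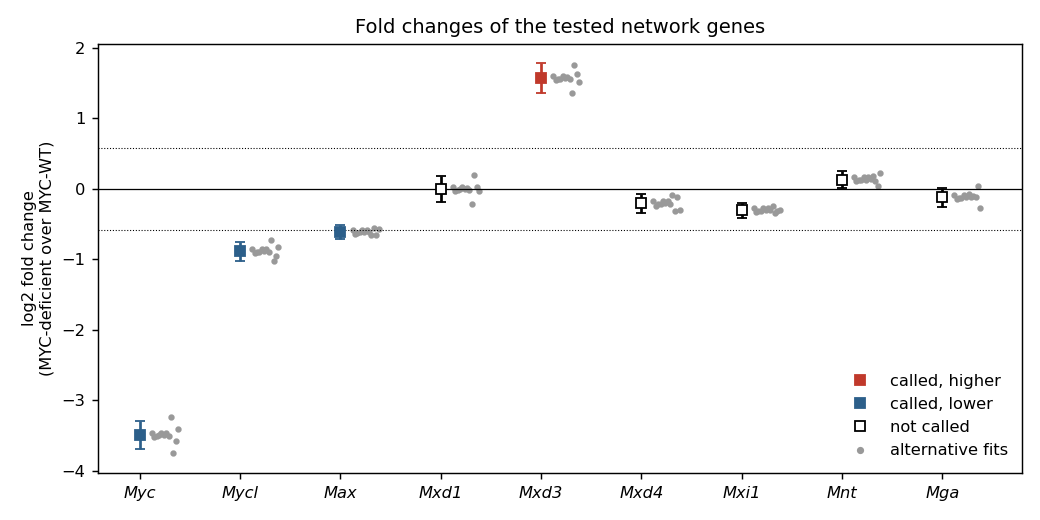
Log2 fold change (MYC-deficient over MYC-WT) of the 9 tested network genes; squares are the reported values with bars of 1 standard error, grey points the values under 12 alternative fits, and dotted lines the threshold of 1.5-fold. Myc (-3.49), Mycl (-0.88) and Mxd3 (1.57) stand clear of the dotted lines, Max (-0.61) lies on one of them, and the other 5 genes lie within 0.30 of 0.

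To compare levels between genes, CPM were divided by the kilobases of annotated exon of each gene. In MYC-deficient cells Max came first with 19.9 ± 1.501 CPM per kb (SD, n = 2), followed by Mnt (14.05 ± 0.142), Mycl (11.4 ± 1.35), Myc (7.71 ± 1.70), Mxd3 (6.30 ± 1.43), Mga (5.39 ± 0.149), Mxi1 (3.70 ± 0.0766), Mxd4 (3.39 ± 0.282), Mxd1 (2.29 ± 0.526) and Mycn. In that order Myc overlapped Mxd3, and Mxd3 overlapped Mga. In MYC-WT cells the order was Myc (88.4 ± 5.09 CPM per kb; SD, n = 2), Max (31.0 ± 0.482), Mycl (21.5 ± 0.907), Mnt (13.1 ± 0.950), Mga (5.98 ± 1.06), Mxi1 (4.66 ± 0.0800), Mxd4 (3.99 ± 0.448), Mxd1 (2.34 ± 0.120), Mxd3 (2.16 ± 0.173) and Mycn. Here only Mxd1 and Mxd3 overlapped as neighbours. In MYC-deficient cells Myc thus ranked below Max, Mnt and Mycl, and Mxd3 ranked above Mxi1, Mxd4 and Mxd1, which were above it or overlapped it in MYC-WT cells.

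Ratios within a library do not depend on the scaling between libraries. The ratio of Myc to Max was 0.311 and 0.474 in MYC-deficient libraries, against 2.77 and 2.94 in MYC-WT libraries. The ratio of the summed antagonists (Mxd1, Mxd3, Mxd4, Mxi1 and Mnt) to the summed MYC genes was 1.804 and 1.346 in MYC-deficient and 0.247 and 0.230 in MYC-WT libraries, a 6.60-fold difference of the means. MYC transcripts therefore outnumbered those of the antagonists in both MYC-WT libraries and were outnumbered by them in both MYC-deficient libraries, per length. Since Myc is the deleted gene, these 2 ratios are descriptions.

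Myc made up 38.2% and 41.8% of the summed MYC genes in MYC-deficient and 80.2% and 80.6% in MYC-WT libraries. The antagonists summed to 30.8 and 28.7 CPM per kb in MYC-deficient and 26.1 and 26.3 CPM per kb in MYC-WT libraries, and Mxd3 was 23.8% and 18.4% of that sum in MYC-deficient against 8.76% and 7.77% in MYC-WT libraries. The ratio of the antagonists to Max, computed after the single genes had been seen, was 1.47 and 1.53 in MYC-deficient and 0.853 and 0.840 in MYC-WT libraries. An exact two-sided permutation test gave p = 0.333 for it, the smallest value that 2 against 2 libraries allow.

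**Figure D3:**
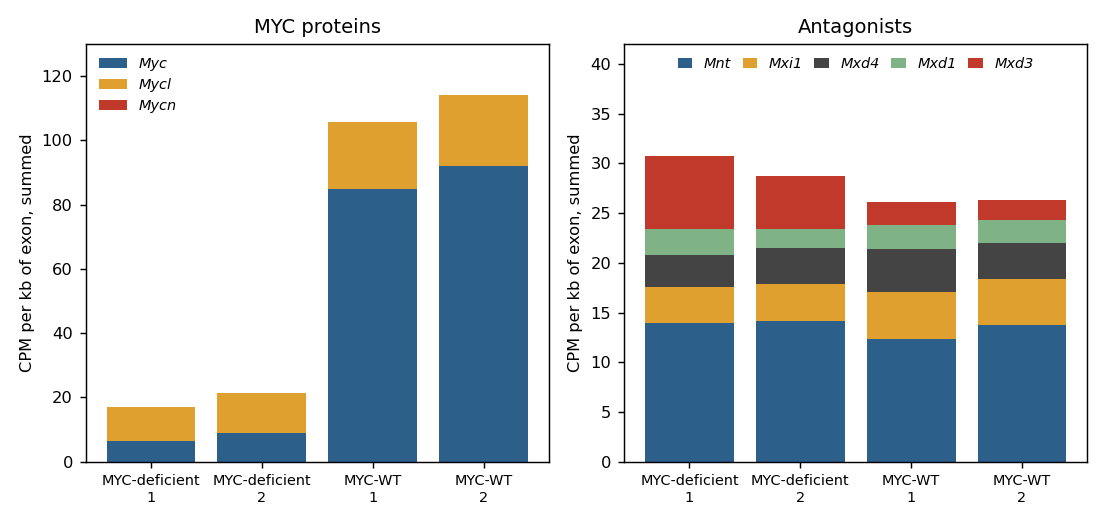
Summed CPM per kb of exon of the MYC genes (left) and the antagonists (right) in each library, on axes of different range, stacked by gene from 0. The MYC sum was 17.1 and 21.3 in MYC-deficient against 105.7 and 114.2 in MYC-WT libraries, while the antagonist sum stayed between 26.1 and 30.8 with a larger Mxd3 part in MYC-deficient libraries.

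The genes whose profiles over the 4 libraries were most like those of the called network genes were found by the Euclidean distance between log2 CPM, each centred on its own mean. Nearest to Myc were Zfp365 (distance 0.29), Dctd (0.50) and Slc16a1 (0.64). Nearest to Mycl were Mrpl19 (0.03), Mipep (0.04) and C77080 (0.05), and nearest to Max were Rnf219 (0.02), Setd6 (0.03) and Hspa8 (0.03). Mxd3 was closest to H2-DMa (0.14), Slco3a1 (0.21) and Rdm1 (0.25). With 4 libraries in 2 groups, likeness here is mostly a like difference between genotypes.

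Beyond the 10 genes, a parallel arm of the network is built on MLX, a MAX-like protein that pairs with MXD1, MXD4, MNT and the glucose sensors MLXIP (MondoA) and MLXIPL (ChREBP). Mlx had 37.7 and 39.1 CPM in MYC-deficient against 40.3 and 41.9 CPM in MYC-WT cells, and Mlxip had 86.7 and 81.4 CPM against 98.6 and 89.0 CPM. Neither was called (log2 fold changes -0.07 and -0.13, adjusted p = 0.681 and 0.408). Mlxipl had too few counts to be tested. Txnip, a target of MondoA that limits glucose uptake, was higher, with 200.6 and 274.7 CPM in MYC-deficient against 116.5 and 146.2 CPM in MYC-WT cells, a log2 fold change of 0.88 (SE 0.21, adjusted p = 0.0432). Txnip lost its call without MYC-deficient replicate 2 (adjusted p = 0.0607), MYC-WT replicate 1 (adjusted p = 0.155) or MYC-WT replicate 2 (adjusted p = 0.0961). Arrdc4, another MondoA target, had a log2 fold change of 0.03 (SE 0.23, adjusted p = 0.937).

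Of 20 genes of coactivators and other cofactors of MYC, 4 were lower and 16 were not called, against 9.91% of all genes called lower. Their median log2 fold change was -0.17. The 4 were Ruvbl2 and Ruvbl1, ATPases of the TIP60 complex, the histone acetyltransferase Kat2a and the arginine methyltransferase Prmt5. Kat2a had 50.8 and 45.2 CPM in MYC-deficient against 104.9 and 125.2 CPM in MYC-WT cells (log2 fold change -1.23, adjusted p = 0.0100), and Ruvbl2, Prmt5 and Ruvbl1 had log2 fold changes of -1.29, -1.22 and -1.19. The scaffold Trrap and the acetyltransferase Kat5 of the same complex had 99.5 and 101.4 CPM and 32.2 and 33.3 CPM in MYC-deficient cells, against 119.0 and 100.4 CPM and 31.5 and 32.6 CPM in MYC-WT cells. Without MYC-WT replicate 2 the count was 2 of 20, with Prmt5 and Ruvbl1 lost (adjusted p = 0.0576 and 0.0711).

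On the opposing side, none of 18 tested genes of the SIN3 and NCOR corepressor complexes was called by edgeR's quasi-likelihood test, against 16.0% of all genes tested. Their median log2 fold change was -0.12. At an unadjusted p under 0.05, a cut that a large share of all genes passed, there were 4, of which 3 were lower. DESeq2, edgeR's likelihood ratio test and limma called 0. Without MYC-deficient replicate 2, Arid4a, a subunit of the SIN3 complex, was called higher (log2 fold change 0.61, adjusted p = 0.0474). Their log2 fold changes ran from -0.52 to 0.46, and Rbbp7, a histone-binding subunit, had the lowest (adjusted p = 0.0369), below the fold threshold. Sin3a, the scaffold that MXD proteins bind, had 100.7 and 90.7 CPM in MYC-deficient against 115.8 and 108.8 CPM in MYC-WT cells. Of 12 genes of the MGA-containing Polycomb complex, 2 were lower, against 9.91% of all genes, with a median of -0.12, and 0 without MYC-WT replicate 2. Pcgf6, the subunit that defines this complex, was 7.74 and 6.39 CPM in MYC-deficient against 19.8 and 19.9 CPM in MYC-WT cells (log2 fold change -1.46, adjusted p = 0.00939). Tfdp1, the E2F partner, had a log2 fold change of -0.74 (adjusted p = 0.0132), and both lost their call without MYC-WT replicate 2 (adjusted p = 0.0560 and 0.0866).

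Of 19 genes that set the stability of MYC protein, 2 were lower and 17 were not called, a share near the 9.91% of all genes called lower, with a median log2 fold change of -0.20. Set, an inhibitor of the phosphatase PP2A, had 160.9 and 153.5 CPM in MYC-deficient against 473.3 and 493.2 CPM in MYC-WT cells (log2 fold change -1.59, adjusted p = 0.00711). Usp36, a nucleolar deubiquitinase, had a log2 fold change of -0.87 (adjusted p = 0.0146), lost without MYC-WT replicate 2 (adjusted p = 0.0803). Fbxw7, the ubiquitin ligase that marks phosphorylated MYC for degradation, had 26.5 and 26.3 CPM in MYC-deficient against 24.3 and 22.3 CPM in MYC-WT cells and was not called (adjusted p = 0.245).

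Classic targets of MYC were lower almost throughout. Of 20 tested, 17 were lower, against 9.91% of all genes, 1 was higher, against 6.06%, and 2 were not called, with a median log2 fold change of -1.70. The list was chosen with earlier results of these data known, so these shares describe the 20 genes and are no independent test. The nucleolar protein genes Ncl, Npm1 and Nop58 and the pyrimidine enzyme gene Cad had log2 fold changes of -1.88, -2.02, -1.71 and -1.69 (adjusted p = 0.00711 each). Npm1 has pseudogene copies, so its counts are uncertain to the extent that reads are shared with them. The gene that went the other way was Ccnd2, which encodes cyclin D2. It had 7.18 and 10.2 CPM in MYC-deficient against 0.903 and 2.81 CPM in MYC-WT cells, a log2 fold change of 2.25 (SE 0.55, adjusted p = 0.0462), and lost its call without MYC-WT replicate 1 (adjusted p = 0.0679).

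**Figure D4:**
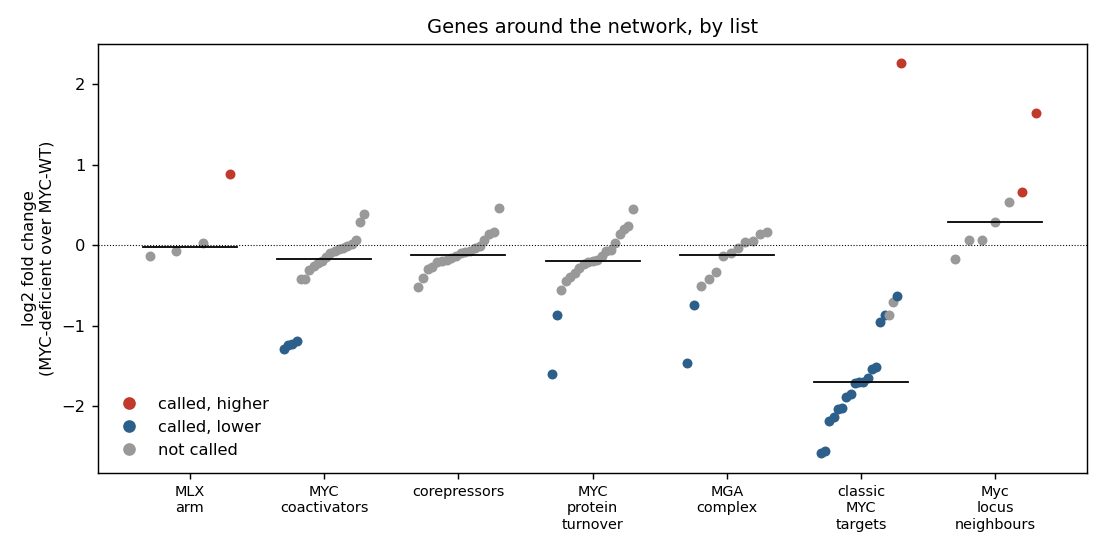
Log2 fold change (MYC-deficient over MYC-WT) of the tested genes of 7 lists around the network, with 1 point per gene in order of size and a line at each list's median. Most genes of the coactivator, corepressor, turnover and MGA lists are grey (not called) around 0, whereas 17 of 20 classic targets are lower, with a median of -1.70. The lists were chosen with earlier results of these data known.

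Genes beside Myc on chromosome 15 were read separately. Pvt1 (62037986 to 62378096 in mm10), a noncoding gene that begins 47.6 kb past the end of Myc, was 30.5 and 29.6 CPM in MYC-deficient against 8.91 and 10.8 CPM in MYC-WT cells. Both MYC-deficient libraries were far above both MYC-WT libraries, and the log2 fold change was 1.64 (SE 0.15, adjusted p = 0.00791), the opposite direction from Myc. The call of Pvt1 held without each library in turn (adjusted p from 0.00237 to 0.0355). Asap1, 2.10 Mb from Myc, was also higher (log2 fold change 0.66, adjusted p = 0.0180), and lost its call without MYC-WT replicate 1 (adjusted p = 0.0732) or replicate 2 (adjusted p = 0.134). Trib1, Nsmce2, Fam84b, Fam49b and Sqle, between 1.13 and 2.65 Mb away, had log2 fold changes of 0.53, 0.29, -0.17, 0.06 and 0.06 and were not called, and Adcy8 had no count. At this locus the floxed allele itself and the loss of MYC cannot be told apart in this design.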

How the data were processed

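RNA-seq counts of 4 libraries were analysed. The authors deposited raw counts per gene for 28443 genes, of which 4413 had no count, the counts of a subset of 11109 genes, chosen by an unstated rule, and the log2 CPM that the authors made for this subset. Tools named in the submitters' processing notes are STAR 2.7.3a, fastp, edgeR and bcl2fastq 1.8.4, with the build mm10. Which tool counted reads, and with which strand setting, was not given in the sources used here.

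Deposited counts entered edgeR 4.0.16 in R 4.3.3 (TMM scaling, filterByExpr with min.count 10 and min.total.count 15, quasi-likelihood test, 2 residual degrees of freedom), and p-values were adjusted over all 13436 genes tested. Adjusted p in the text are from this test unless another tool is named. A standard error was obtained as the size of the log2 fold change over the root of its F statistic. The script was tested on simulated data. Alternatives were DESeq2 1.42.0, scaling by RLE or by total counts, the unfiltered table, the authors' subset, edgeR's likelihood ratio test, limma 3.58.1 (limma-trend on the deposited log2 CPM), no fold threshold or 2-fold, a block for the replicate number, and each library left out in turn. CPM in the text are of total counts.

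Exonic lengths are unions of the exons in GENCODE M21, where 9 of the 10 genes have the coordinates of the deposited table and Mxi1 has others. Profiles were compared on log2(CPM + 0.1) among genes whose log2 CPM averaged 3 or more. Named are all 10 network genes, up to 4 called genes per direction and list by adjusted p, every tested gene of lists of up to 8 genes, and the 3 nearest profiles. Trrap, Kat5, Sin3a, Rbbp7, Arid4a and Fbxw7 were added after their values were seen. Members and lists were chosen with earlier results of these data known.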

Additional observations from a re-analysis of the deposited data

How the results depend on the processing

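Of 396 recomputed log2 fold changes of named genes, 367 kept their direction and call, 19 lost the call and 10 changed sign, all 10 in genes that were not called. Mxd1, at -0.01, became 0.0219 with RLE scaling, 0.0222 with DESeq2 and 0.0130 with limma-trend. When a library was left out, Mxd1 ranged from -0.22 to 0.19, Mga from -0.27 to 0.0488, Arrdc4 from -0.31 to 0.34 and Sqle from -0.34 to 0.40, with the sign changed without MYC-WT replicate 1 in all 4 genes and without MYC-deficient replicate 2 in Mxd1, Arrdc4 and Sqle. Of the network genes, Myc alone was called under each of the 12 alternative fits. The number of network genes called was 4, and 2 at a fold change over 2. It ranged from 1 to 4 when a library was left out, with 1 (Myc) without MYC-WT replicate 2. Over all genes 814 were called higher, against 1385 with no filter, 349 at a fold change over 2 and 65 to 1011 when a library was left out, and 1331 lower, against 689 at a fold change over 2 and 199 to 1281 when a library was left out. The lowest counts, 65 and 199, were without MYC-WT replicate 2, and those without MYC-WT replicate 1 were 290 and 693. With the replicate number as a block, 1400 genes were called higher and 1774 lower, and the same number of network genes, 4, was called. Deviations from the group means of libraries with the same number correlated at 0.499 across genes, but the labels do not say that equal numbers share a batch. The log2 ratio of the antagonists to the MYC genes between genotypes was 2.72, against 2.32 when counts were not divided by length and 2.50 to 2.92 when a library was left out, and that of Myc to Max was -2.86, with -3.20 to -2.59 when a library was left out. Max, at 1.53-fold, lay close to the chosen threshold, and small shifts of scaling moved it across.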
